A study of Mus musculus with 8 samples.

Results

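Transcription factors that give the intestinal epithelium its identity and its regions were followed in fetal mouse small intestine harvested at E18.5. The group holds 9 genes, the caudal homeobox genes Cdx1 and Cdx2, the zinc finger genes Gata4, Gata5 and Gata6, the nuclear receptor genes Hnf4a and Hnf4g, the pancreatic and duodenal homeobox gene Pdx1, and the cut homeobox gene Onecut2. They were taken by gene name from the array files, which name 36161 distinct genes or transcripts. Each member had 1 probe of 60 bases and 1 spot per array, so 9 of 55681 probes are described. Expression was measured on 8 one-colour Agilent arrays, 1 per sample, with 4 controls and 4 mutants. Control replicates 1, 3 and 4 are labelled Rfx6 fl/+ and control replicate 2 Rfx6 fl/fl, and no Cre is named for them. All 4 mutants are labelled Rfx6 fl/fl Ngn3-cre. In these mice loxP sites flank part of Rfx6, a transcription factor gene of endocrine cells, and Cre is expressed from regulatory sequence of Ngn3 (Neurog3), a gene of endocrine progenitors. Deletion is therefore directed to the endocrine lineage, a small share of the gut wall, while the labels name RNA of the small intestine with no sorting of cells. The effects of Cre and of the deletion cannot be told apart, since only the mutants carry Cre. The description fields of mutant replicates 2, 3 and 4 name Rfx7, Rfx8 and Rfx9, against Rfx6 in their titles, which were followed. The labels give neither strain nor sex, and nothing in them says whether embryos shared a litter, so p-values measure the spread between these samples.

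CDX proteins bind regulatory DNA of enterocyte and goblet cell genes, and loss of Cdx2 in gut endoderm lets foregut features appear. GATA4 marks duodenum and jejunum and keeps ileal genes off there, while GATA6 is made along the whole intestine and in its mesenchyme. HNF4 proteins, as homodimers and heterodimers, act with CDX2 at enterocyte genes, among them those of lipid transport. Pdx1 is a gene of duodenum and pancreas, and Onecut2 of proximal intestinal epithelium.

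The probe sequences differed in how specific they looked, and 30 bases of 6 of them are shown for that reason, written 5′ to 3′ as in the array files. Each line gives the middle of the probe, except for Gata5, where the stretch around its most widely shared piece is given and capitals mark that piece of 16 bases.
Gata5: tgtagctCTGGCTGTCCTGGAACtcattat
Gata4: attctgttgtaatcattttcgctgtttctc
Cdx2: ttcttgatccatgggtagagaagttgtatg
Pdx1: aactttgaggctgcttctgatgccaagcga
Hnf4a: aaaagccctcaaaaacagttcttactcctg
Hnf4g: gtgctgttataagattctatcctgttttct
All 60 bases of each probe were compared, without gaps and on both strands, with 32851 promoter windows of 300 bases in RefSeq (GRCm38.p6). The Gata5 probe matched at 42 or more of its 60 bases in 81 windows of other genes, and at up to 54 bases. No such window was found for the other 8 probes, whose best match to another gene was 34 to 38 bases. The capital piece alone occurred in 35 windows. The Gata5 probe thus carries sequence that recurs near the start sites of other genes. Of each window 250 bases lie before the start site, so a match need not be transcribed. If other transcripts hold this sequence and bind the probe, their signal cannot be told from that of Gata5. Such binding was not tested.

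Every member was well above background on all 8 arrays. No member spot was saturated or marked as an outlier. Levels below are log2 processed intensity minus the log2 of the array's 75th percentile, so 0 is the 75th percentile, and differences are mutant minus control on that log2 scale. Probes bind with unequal strength, so the level of a gene is compared between arrays and not with that of another gene. Before the results it has to be said that mutant replicate 1 stood apart. Its mean correlation with the other arrays, across probes, was 0.975, against 0.989 to 0.990 for those 7. The Rfx6 probe did not check the labels, at -3.48 to -2.93 in controls, -5.52 in mutant replicate 1 and -3.37 to -3.02 in the other mutants (difference -0.50, SE 0.52, limma adjusted p = 0.828). Whether that probe lies in the deleted part is not given in the sources used here.

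Of the 9 members, 0 passed an adjusted p of 0.05 in limma and 0 had an unadjusted p under 0.05. Over all 35472 probes tested, 0.0423% passed the adjusted threshold (0.0395% lower and 0.00282% higher in mutants) and 5.05% had an unadjusted p under 0.05. The groups overlapped for every member, while they did not overlap for 4.37% of probes. Differences were above 0 for 6 members and below 0 for 3, with a median of 0.021 beside 0.024 for all probes. The smallest adjusted p of a member was 0.828. All 9 intervals of 95% lay inside a 2-fold change in either direction, which held for 88.0% of probes. Changes of the members smaller than these intervals were not detectable, and changes of the members within endocrine cells only could be missed in this RNA. In such bulk RNA fewer cells of a type and less RNA per cell cannot be told apart.

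**Figure D1:**
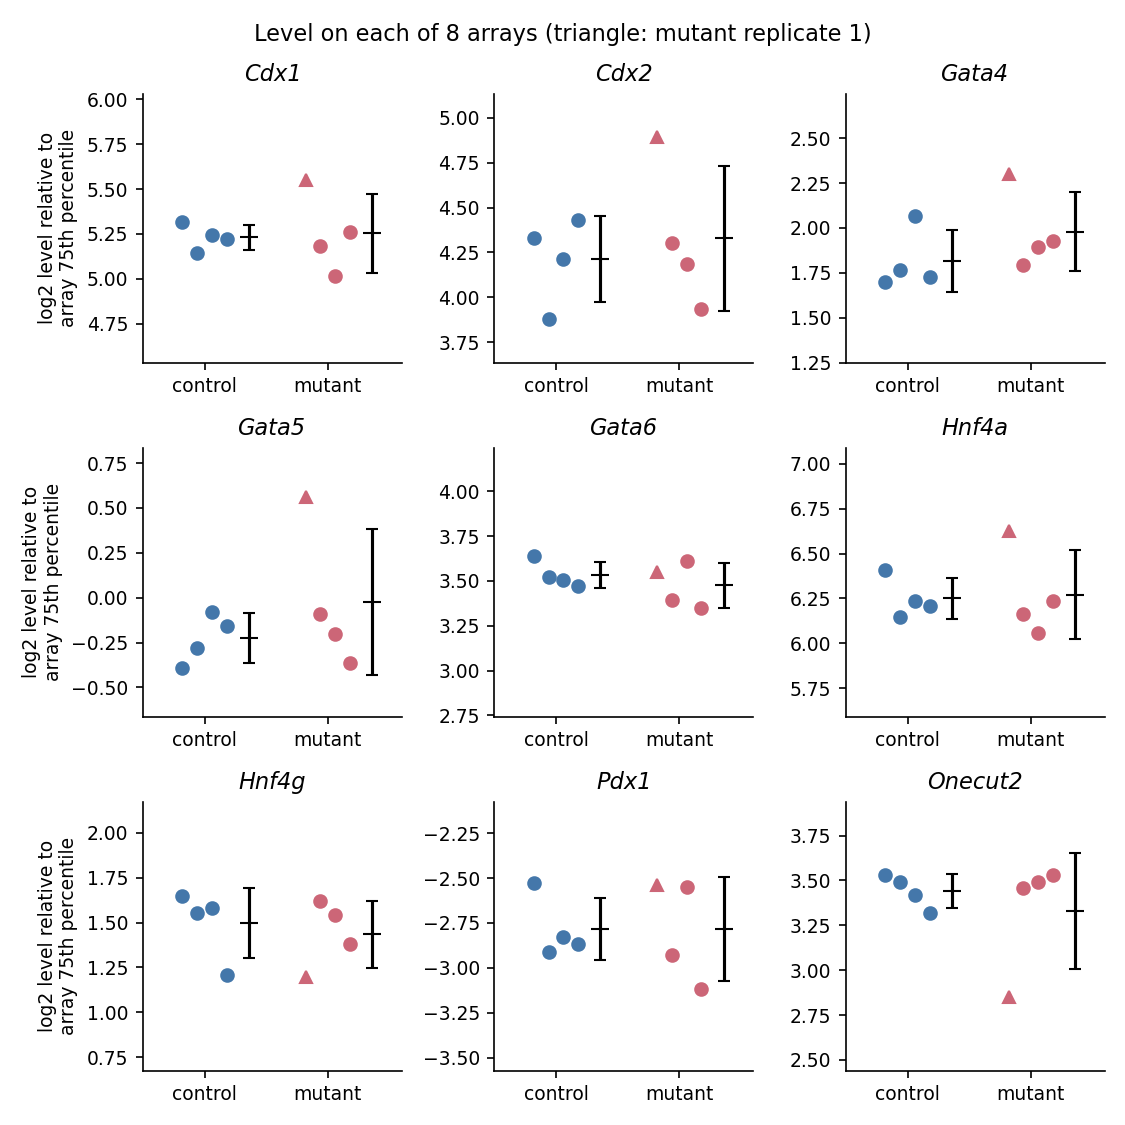
Log2 level of each of the 9 members relative to the array's 75th percentile (y axis, each panel spanning 1.5 log2 units) in 4 control and 4 mutant arrays (points), with mean and SD (black). Mutant replicate 1 (triangle) is the highest array for Cdx1, Cdx2, Gata4, Gata5 and Hnf4a and the lowest for Hnf4g and Onecut2, and the groups overlap in every panel.

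Among the caudal genes, Cdx1 (chromosome 18) encodes a homeodomain protein of crypt and villus epithelium. In control replicates 1 to 4 its level was 5.31, 5.14, 5.24 and 5.22, and in mutant replicates 1 to 4 it was 5.55, 5.19, 5.02 and 5.26. Mutant replicates 1 and 3 lay above and below all controls, so the group means of 5.23 ± 0.07 and 5.25 ± 0.22 (SD, n = 4 each) hid a wider spread in the mutants. The difference was 0.022 (SE 0.12, 95% interval -0.26 to 0.30, limma adjusted p = 0.968). Cdx2 (chromosome 5, 148112547 to 148112606, mm9 here and below, minus strand) encodes the factor that establishes intestinal fate. Its levels were 4.33, 3.88, 4.21 and 4.43 in controls and 4.89, 4.30, 4.19 and 3.93 in mutants. Mutant replicate 1 was the highest and control replicate 2 the lowest of the 8 arrays, a range of 1.01 that was the widest of any member. The difference was 0.12 (SE 0.21, interval -0.37 to 0.60, limma adjusted p = 0.894) and turned to -0.073 (SE 0.15) without mutant replicate 1. Within groups, 78.1% of all genes had a smaller SD than Cdx2, against 37.3% for Cdx1.

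Pdx1 lies beside Cdx2, and the 2 probes are 25918 bases apart on chromosome 5. In the RefSeq gene table only a microRNA gene and a long noncoding RNA gene lie wholly between them. Pdx1 (148086570 to 148086629, plus strand) was the member nearest to background, with a processed intensity of 115 to 168. Its levels were -2.53, -2.91, -2.83 and -2.87 in controls and -2.54, -2.93, -2.55 and -3.12 in mutants. High and low arrays occurred in both groups, control replicate 1 and mutant replicates 1 and 3 being the high ones. The means were -2.78 ± 0.17 and -2.78 ± 0.29 (SD, n = 4 each), and the interval of the difference was -0.36 to 0.36 (limma adjusted p = 1.00). Relative to Cdx2 on the same array, Pdx1 moved by -0.12 between groups, with SDs of 0.23 in controls and 0.29 in mutants. The tested pancreatic acinar markers had a higher sum in the mutant arrays, with an intensity of 2.88 to 14.0 times the 75th percentile against 1.04 to 2.27 in controls. Of that list 7 of 10 genes were tested and 0 passed. All 7 differences were above 0, and 6 had an unadjusted p under 0.05 in limma, beside 5.05% of all probes. Cela2a, well above background on 0 controls and 4 mutants, passed the filter only through the mutants. Among the untested, Prss2 was well above background on 0 controls and 3 mutants, and Pnlip on 1 array of each group. Ptf1a, the defining transcription factor, was well above background on 0 of 8. The part of acinar RNA in the Pdx1 values was not tested. Of 5 islet markers, with 3 differences below 0, 2 above and 0 passing, Iapp, the amylin gene, was at -3.65 to -2.64 in mutants and -1.81 to -1.01 in controls (limma adjusted p = 0.0885). The other islet markers had overlapping groups, with differences of -0.43 for Ins1, -0.10 for Ins2, 0.19 for Nkx6-1 and 0.11 for Mafa.

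The GATA genes encode zinc finger proteins that bind the sequence for which they are named. Gata4 (chromosome 14, 63817858 to 63817917, minus strand), the proximal member, was at 1.70, 1.76, 2.07 and 1.73 in controls and at 2.30, 1.79, 1.90 and 1.93 in mutants. Mutant replicate 1 was again the highest array, and control replicate 3 exceeded the other mutants. The difference was 0.16 (SE 0.14, interval -0.15 to 0.48, limma adjusted p = 0.828), and it was 0.057 (SE 0.11) without mutant replicate 1. Gata6 (chromosome 18) had the steadiest level of all members. It was at 3.64, 3.52, 3.50 and 3.47 in controls and 3.55, 3.39, 3.61 and 3.35 in mutants, a range of 0.29. Only 9.13% of genes had a smaller SD within groups. The difference was -0.057 (SE 0.096, interval -0.28 to 0.16, limma adjusted p = 0.883), and mutant replicate 1 lay among the other arrays. Gata4 set against Gata6 on the same array gave 0.22, close to the SDs of 0.21 in either group. Because GATA factors are also made in gut mesenchyme, 10 markers of mesenchyme and smooth muscle were read, with a mean level of 3.57 to 3.98 in controls and 3.84 to 4.10 in mutants and 0 of 10 passing.

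Gata5 (chromosome 2, 180059867 to 180059926, minus strand) is read through the probe with the repeated sequence. Its levels were -0.39, -0.28, -0.08 and -0.16 in controls and 0.56, -0.09, -0.20 and -0.37 in mutants. Mutant replicate 1 stood 0.78 above the mean of the other mutants, and those 3 overlapped the controls. The difference was 0.20 (SE 0.20, interval -0.24 to 0.65, limma adjusted p = 0.828), the largest of the 9, and it was 0.0058 (SE 0.11) without that array. Every tested probe with a value on all 8 arrays was then scored for its best stretch in common with the Gata5 probe, counting 1 for a match and subtracting 1 for a mismatch. On the same strand 5 of 35445 other probes reached a score of 20, and on the opposite strand 28 did, against 0 on either strand for any other member.

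The 3 best matches on the same strand followed Gata5 over the 8 arrays, Kif1c mainly by its rise on mutant replicate 1. The best matches of all were on the opposite strand and did not, F10, Elk1 and Ttc38 with scores of 43, 37 and 33 lying at 0.25, 0.27 and 0.28 on the scale given next. Profiles were compared by the root mean square difference over the 8 arrays after each probe's own mean was subtracted, where the median of all probes to Gata5 was 0.30. The probe for Timmdc1, a mitochondrial assembly gene, with a score of 32, was at 0.070, and 0.0564% of all probes were nearer. A probe for a GenBank cDNA, with a score of 30, was at 0.047, and 0.00282% were nearer, while the probe for Kif1c, a kinesin gene, with a score of 31, was at 0.11, with 0.810% nearer. All 3 peaked on mutant replicate 1, as Gata5 did. Without that array the values were 0.074, 0.050 and 0.12, against a median of 0.19 for all probes. Gata5 itself varied little over the remaining arrays, with an SD within groups of 0.14. The 0.12 of Kif1c is thus hardly nearer than a flat profile would be. The other 2 same-strand probes, with scores of 22 and 20, were at 1.32 and 0.27. They too were highest on mutant replicate 1, by a much larger step in the first. Opposite-strand probes had a median of 0.37, above that of all probes. Genes outside these matches also lay near Gata5. Krt73, Pdlim2 and Cnnm3, at 0.055, 0.055 and 0.056, were nearer than Timmdc1 and Kif1c, though not nearer than the GenBank cDNA. The comparisons with matching probes were chosen after the Gata5 values were seen. What part of the Gata5 signal comes from other transcripts was not tested.

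**Figure D2:**
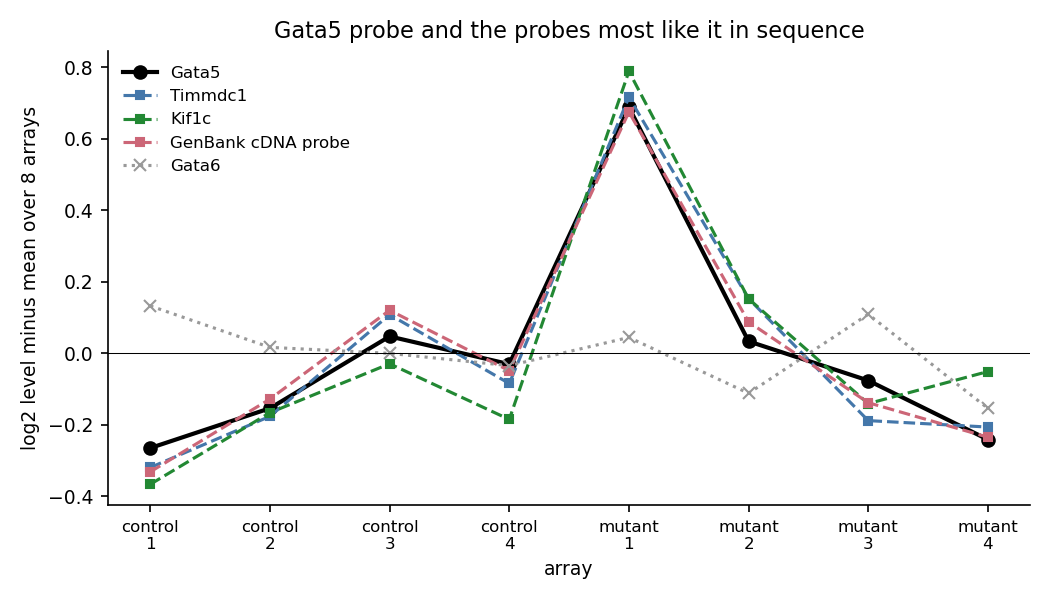
Log2 level minus its mean over the 8 arrays (y axis) on each array (x axis) for the Gata5 probe, the 3 probes that match it best on the same strand, and Gata6. Gata5 and the 3 matching probes rise together on mutant replicate 1 and dip on control replicate 1, while Gata6 stays within a range of 0.29. Lines join arrays only to guide the eye.

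Hepatocyte nuclear factors came next. Hnf4a (chromosome 2, 163398548 to 163398607, plus strand) has 2 start sites in the RefSeq promoter table, used in different tissues. Its probe begins at base 4262 of the transcript, near the 3′ end, so products of the start sites were not told apart. The levels were 6.41, 6.14, 6.23 and 6.21 in controls and 6.62, 6.17, 6.06 and 6.24 in mutants. Mutant replicate 1 and then control replicate 1 were highest, and mutant replicate 3 was lowest. The difference was 0.021 (SE 0.14, interval -0.29 to 0.33, limma adjusted p = 0.973). Hnf4g (chromosome 3, 3657265 to 3657324, plus strand), the gut-enriched paralogue, was at 1.65, 1.55, 1.58 and 1.21 in controls and 1.20, 1.62, 1.54 and 1.38 in mutants. Low values fell on 1 array of each group, control replicate 4 and mutant replicate 1. The difference was -0.062 (SE 0.14, interval -0.37 to 0.25, limma adjusted p = 0.912). Hnf4g relative to Hnf4a on the same array differed by -0.084 between groups, with an SD of 0.18 in controls and 0.42 in mutants.

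Cdx1 and Hnf4a varied nearly in parallel. Their root mean square difference was 0.043, the smallest of the 36 pairs of members, and it was 0.040 without mutant replicate 1, again the smallest. Among 14705 genes with a plain symbol and well above background on every array, Hnf4a ranked 28th nearest to Cdx1. Cdx2 did not share this profile as closely, at 0.22 from Cdx1 and 0.20 from Hnf4a. The pair farthest apart was Cdx2 and Onecut2, at 0.49, and this fell to 0.24 without mutant replicate 1. These values describe 8 arrays of 1 slide, or those arrays without mutant replicate 1, and no test was made of them.

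Onecut2 (chromosome 18) was the member that mutant replicate 1 lowered most. Its levels were 3.53, 3.49, 3.42 and 3.32 in controls and 2.85, 3.46, 3.49 and 3.53 in mutants. Mutant replicates 2, 3 and 4 lay within the range of the controls. The difference was -0.11 (SE 0.16, interval -0.47 to 0.26, limma adjusted p = 0.865), and 0.053 (SE 0.076, interval -0.13 to 0.23) without mutant replicate 1. A deviation of this array as large as the -0.64 of Onecut2 was seen in 17.3% of genes, and for Cdx2 and Gata5 the shares were 13.7% and 12.8%. Its deviation was above 0 for 7 of 9 members and for 66.1% of all genes. Without mutant replicate 1, 0 members passed and 0 had an unadjusted p under 0.05, beside 0.0451% and 6.29% of all probes.

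**Figure D3:**
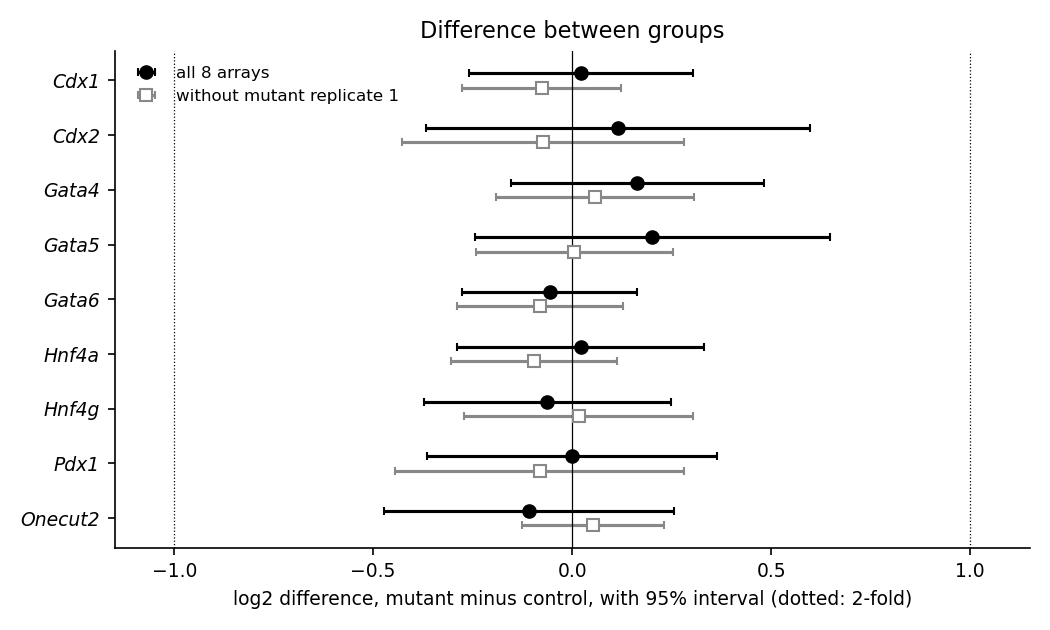
Log2 difference, mutant minus control, for each member with its 95% interval from limma (x axis), over all 8 arrays (filled) and without mutant replicate 1 (open). Every interval crosses 0 and lies inside the dotted lines of a 2-fold change, and for 6 members the sign turns when that array is left out.

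The genes with profiles nearest to those members that ranged most were Star, Chmp1a and Stmn1 for Cdx2, at 0.060, 0.081 and 0.084. For Gata5 they were Krt73, Pdlim2 and Cnnm3, at 0.055, 0.055 and 0.056, and for Onecut2 they were Pigc, Gpr65 and Birc2, at 0.043, 0.050 and 0.052. All of these were measured over the 8 arrays, on the same scale as above and among the same genes with a plain symbol.

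Close relatives of the members were mostly dim in this tissue, and 3 of 6 were tested. Gata2 and Gata3, known from blood and nerve lineages, and Gata1, the erythroid factor, had differences of 0.19 (SE 0.11), -0.30 (SE 0.17) and 0.27 (SE 0.24), with overlapping groups and limma adjusted p of 0.828 each. Cdx4 and Onecut1 were not well above background on any array. Onecut3 (chromosome 10, 79979941 to 79980000, mm9) was well above background on 3 of 4 controls and on 0 of 4 mutants, and so missed the filter of 4 arrays. Its levels were -5.39, -4.38, -4.70 and -5.48 in controls and -7.50, -8.06, -7.35 and -7.57 in mutants. All 4 mutants lay below all 4 controls, mutant replicate 1 included. Against the lowest signal well above background on each mutant array, Onecut3 was at least 1.66-fold lower in mutants by group means of the processed signals. The control mean in that bound includes control replicate 4, which was itself not well above background. A fit with no filter on dim probes gave limma adjusted p = 0.0554, which missed the threshold, and 0.0180% of the 55681 probes were called lower there. The fitted difference of -2.63 (SE 0.28) is no measured size, since it rests on mutant values that were not above background. Onecut3 was singled out after its values were seen, and its difference was -0.41 after normexp background correction and -0.47 in the deposited values, both below 0 with limma adjusted p of 0.617 and 0.313. Onecut2, with its high signal in both groups, gave no such separation.

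**Figure D4:**
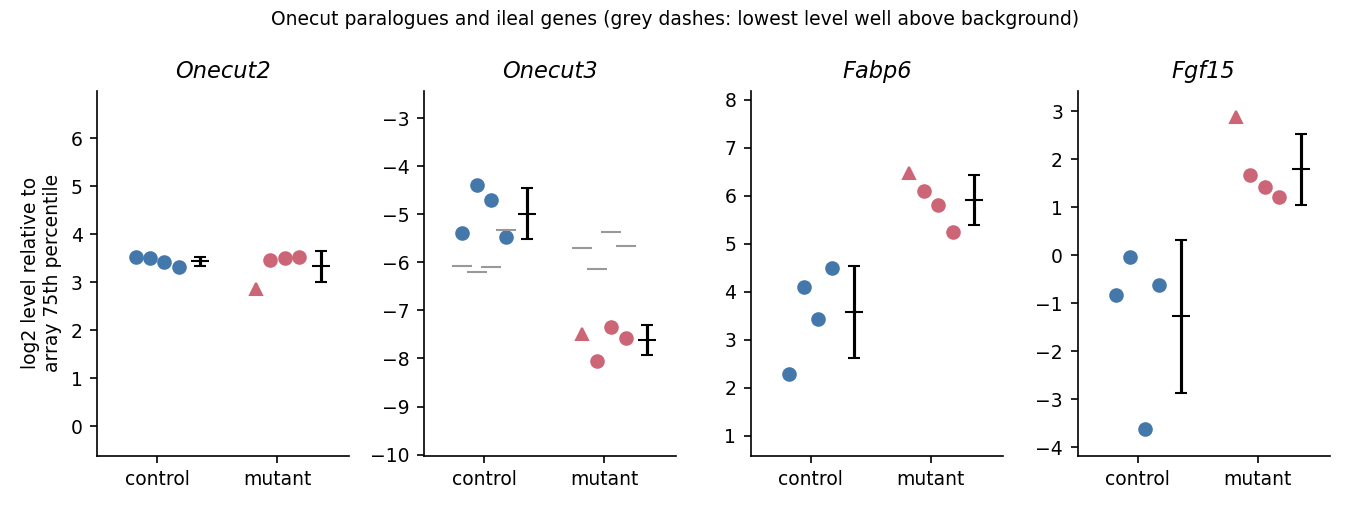
Log2 level relative to the array's 75th percentile (y axis, 7.6 log2 units in each panel) for Onecut2, Onecut3, Fabp6 and Fgf15 in 4 control and 4 mutant arrays (points; triangle, mutant replicate 1), with mean and SD (black). For Onecut3 all mutants lie below all controls and under the lowest level well above background on their arrays (grey dashes), and for Fabp6 and Fgf15 all mutants lie above all controls, although none of these differences passed the adjusted threshold.

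Partner factors of the intestinal epithelium were read with the same fit. All 23 were tested and 0 passed, with 17 differences above 0, 6 below and a median of 0.046, beside 0.031 for all genes. That lean rested on mutant replicate 1, since without it 10 were above 0 and 13 below, with a median of -0.047 beside 0.0018 for all genes. Creb3l3, a membrane-bound factor of lipid genes, differed by 0.065 (SE 0.14), and Isx, an intestine-specific homeobox gene under CDX2, by 0.022 (SE 0.12). Nr1h4, the bile acid receptor gene, differed by -0.058 (SE 0.093). Prdm1, which keeps the fetal enterocyte programme, stood at 2.73 ± 0.09 in controls and 2.78 ± 0.16 in mutants (SD, n = 4 each). The largest shift of that list, singled out after its values were seen, was Zfpm2, a partner of GATA proteins, at -0.46 (SE 0.16, limma adjusted p = 0.828).

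Known targets of the members were read next. Of 8 genes bound and activated by CDX factors 0 passed, with 4 above 0, 4 below and a median of -0.0049. Without mutant replicate 1 the split was 1 above and 7 below, with a median of -0.087, beside 0.0018 for all genes. Lct (lactase), Mep1a (meprin) and Alpi (alkaline phosphatase) differed by 0.031 (SE 0.14), -0.032 (SE 0.15) and 0.089 (SE 0.16). Of 9 HNF4 target genes 0 passed, 7 were above 0 and 2 below, and the median was 0.060. This too turned without mutant replicate 1, to 1 above and 8 below and a median of -0.056. Fabp1, Apoc2 and Apoa4, genes of lipid handling, differed by 0.043 (SE 0.10), 0.069 (SE 0.14) and 0.064 (SE 0.16). Of 7 genes of proximal small intestine, several of which are also in the other lists, 0 passed, 4 were above 0 and 3 below, and the median was 0.031. Without mutant replicate 1 it was -0.053, with 1 above and 6 below. The 10 epithelial markers had a mean level of 5.63 to 5.73 in controls and 5.62 to 5.91 in mutants, with 7 differences above 0 and 3 below. They turned in the same way without mutant replicate 1, to 3 above and 7 below and a median of -0.033. The target and proximal lists share genes, so their splits are not separate counts. Whether the turn is particular to target genes was not tested.

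Ileal genes had the largest median difference of the lists of partners, targets and regional genes. Of 7 tested 0 passed, 6 were above 0 and 1 below, and the median was 0.20, beside 0.031 for all genes. In limma 3 had an unadjusted p under 0.05, beside 5.05% of all probes. Without mutant replicate 1 the list again had 6 above 0 and 1 below, with a median of 0.19, beside 0.0018 for all genes. Fabp6, the ileal bile acid binding protein gene, was at 2.30, 4.10, 3.43 and 4.50 in controls and 6.48, 6.10, 5.81 and 5.25 in mutants. All mutants exceeded all controls, by 2.33 between means (SE 0.47, limma adjusted p = 0.378). Fgf15, the enterocyte hormone gene induced by bile acids, was at -0.83, -0.03, -3.61 and -0.61 in controls and 2.87, 1.67, 1.42 and 1.21 in mutants. These groups were separate too, with a difference of 3.06 (SE 0.74, limma adjusted p = 0.609). Groups thus did not overlap for 2 of the 7 ileal genes, beside 4.37% of all probes. Slc10a2, the uptake transporter gene of ileal enterocytes, had overlapping groups, at -3.60 ± 0.37 and -3.93 ± 1.04 (SD, n = 4 each). Its lower mutant mean came from mutant replicate 1, at -5.47, and without that array the difference was 0.19. Slc51a, Cubn and Amn differed by 0.20 (SE 0.13), 0.14 (SE 0.15) and 0.047 (SE 0.13), with overlapping groups. Slc51b, the partner of Slc51a in bile acid export, differed by 0.37 (SE 0.16, limma adjusted p = 0.828). Fgf15 and Slc51b were singled out after their values were seen. Gata4 had an interval of -0.15 to 0.48, and a link between Gata4 and the ileal genes was not tested.

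Markers of neighbouring organs bear on what the samples held. The gastric factors Sox2 and Barx1 and the hindgut factors Hoxd12 and Hoxd13 were not well above background on any array, and Hoxa13 was on 1, control replicate 1.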

How the data were processed

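Per the labels' protocols, 100 ng of total RNA per sample was amplified and labelled with cyanine 3. Per the file headers, the authors deposited linear spot intensity values from Feature Extraction 10.10.1.1, design annotated on mm9, background-subtracted and detrended within each array but not normalised between arrays. A table of intensity values that the authors deposited served as an alternative. Its columns share their quartiles, and its processing is not given in the sources used here.

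Main values were log2 processed intensity minus the array's 75th percentile (788 to 1027 over 59305 non-control spots), without outlier spots and averaged per probe. A probe was tested when well above background on at least 4 of 8 arrays, without regard to group (35472 of 55681). Each probe was fitted on group alone in limma 3.58.1 (R 4.3.3), whose two-sided moderated p-values were adjusted by Benjamini-Hochberg across every tested probe. The fit was checked on simulated data. For lists, the brightest tested probe of each gene was read. The number of arrays limits precision. Alternatives changed the background correction, scaling, filter, source, weights, blocks and arrays included.

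Named were all members, Rfx6, from each pathway list any called gene and the 3 brightest, Isx, Prdm1, Slc10a2, Fabp6, and the 3 genes with profiles nearest to the 3 members of widest range. Others are said to be chosen later. Single marker genes, among them Iapp, Cela2a, Tff2 and Muc6, also lie outside this rule and were singled out after their values were seen. Some genes that the rule or lists hold are not reported here. Members and lists were chosen with earlier results of these data known.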

Additional observations from a re-analysis of the deposited data

Results flagged for a closer look

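In 76 groups of 4 arrays (members, Rfx6, named list genes and marker means), the highest or lowest value lay beyond the 95% limit of Dixon's gap ratio in 5, where chance at 1 in 20 gives 3.8. Among the members this was Onecut2, at 2.85 on mutant replicate 1 and 3.46 to 3.53 on the other mutants. Rfx6 was at -5.52 on the same array, against -3.37 to -3.02. Nr1h4 was at 4.73 on control replicate 3, against 4.52 to 4.54 on the other controls. Slc10a2 was at -4.15 on control replicate 3, against -3.43 to -3.41. Gata1 was at -4.76 on mutant replicate 4, against -5.38 to -5.32.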

How the results depend on the processing

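No member passed in limma in any of 19 alternatives, and none reached an unadjusted p under 0.05 in any. Gata4 and Gata5 stayed above 0 and Gata6 below 0 in all 19. Other signs turned. Under quantile normalisation Cdx1 was at -0.032 and Hnf4a at -0.076, in the deposited values at -0.040 and -0.095, and relative to the epithelial markers Cdx1, Hnf4a and Pdx1 were at -0.011, -0.012 and -0.033. Weighting arrays by their quality (0.122 for mutant replicate 1) put Cdx1, Hnf4a, Pdx1, Hnf4g and Onecut2 at -0.055, -0.067, -0.031, 0.083 and 0.038. Leaving out 1 array gave -0.076 to 0.10 for Cdx1, -0.073 to 0.25 for Cdx2, -0.096 to 0.092 for Hnf4a, -0.16 to 0.016 for Hnf4g, -0.082 to 0.11 for Pdx1 and -0.17 to 0.053 for Onecut2. Over all probes 14 were called lower and 1 higher. Array weights called 29 and 13. Normexp called 6 higher, the slide row as a block 4, the deposited values 2, and the filter on all 8 arrays 0. Leaving out 1 array gave 9 to 14 lower (9 without control replicate 2 or mutant replicate 3) and 0 to 8 higher (8 without mutant replicate 4, 2 without mutant replicate 1, and 0 without any 1 of control replicates 1, 2 and 4 and mutant replicates 2 and 3). The causes were not tested. The replicate block called 7 lower and 0 higher. Same-numbered arrays had correlations of deviations of -0.087 to 0.0996, so no strong shared deviation was seen. The labels do not say whether the numbers pair samples. In fits with no filter, added after the data were seen, Onecut3 stayed below 0 in all 14 alternatives, and its adjusted p was 0.0596 to 0.821.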

Other observations

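A pair of the 10 genes listed as stomach markers, singled out after their values were seen, set mutant replicate 3 apart. Which tissue their RNA came from was not tested. Tff2, a trefoil peptide gene, was at 2.89 on that array and at -4.47 to -2.94 on the other mutants. Muc6, a mucin gene, was well above background only on that array, at -2.97. Gkn2 was also highest there, at -5.64 against -7.85 to -7.40 on the other mutants, but was not well above background on any array. Muc5ac, Gkn1 and Pgc did not stand apart. Muc5ac was at -3.88 against -4.22 to -3.54 on the other mutants. Gkn1 was at -5.44 against -5.60 to -5.02, and Pgc at -2.94 against -3.32 to -2.96. The gastric factors Sox2 and Barx1 were not well above background on it, and Gata4, Gata6 and Pdx1 lay within the range of the other arrays.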
